A study of Mus musculus with 6 samples.

Results

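The enzymes that make and break down the sphingolipids and galactolipids of myelin were followed in RNA of the sciatic nerve, which supplies most of the hind leg, in mice. They are 10 genes chosen by symbol for their role, of 24421 genes counted: 8 enzymes of synthesis (Sptlc1, Sptlc2, Degs1, Cers2, Cers4, Fa2h, Ugt8a and Gal3st1) and 2 of breakdown (Galc and Asah1). All 10 had at least 1036 reads in every library and were among the 14789 genes tested. The study has 3 libraries whose genotype label reads YAP/TAZ-DBL-cKO and 3 labelled YAP/TAZ-WT, from total RNA of the same tissue, and its design text counts 3 mice of each kind, the wild-type ones as controls. The labels do not spell out DBL. They give no age, no promoter behind a Cre and no deleted exons, and they do not say whether nerves were pooled. Levels are given as CPM, counts scaled to a fixed library size with TMM factors. Xist, made in females, was at 133.9 to 258.0 CPM and Ddx3y, made in males, at 8.93 to 48.0 CPM, and both were present in all 6 libraries.

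Myelin membrane is rich in galactosylceramide and its sulfated form, sulfatide. Serine palmitoyltransferase starts the pathway, ceramide synthases attach a fatty acid, a desaturase completes ceramide, and in Schwann cells a galactosyltransferase and a sulfotransferase then add the galactose and sulfate of the galactolipids. In lysosomes galactosylceramidase removes the galactose and acid ceramidase splits ceramide. Loss of galactosylceramidase causes Krabbe disease, in which peripheral nerves demyelinate.

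Stretches of 250 bases just before a RefSeq start site were available for 8 of the 10 genes (GRCm38.p6, the assembly of mm10); Fa2h and Asah1 had no entry. Windows of 4 genes are printed. They are the gene with the largest fall (Ugt8a) and the first enzyme's subunit that fell most (Sptlc2). The others are the sulfotransferase with start sites far apart (Gal3st1) and the galactosidase that opposes Ugt8a (Galc). Sptlc1 and Degs1, which had the smallest falls, and Cers2 and Cers4 have windows that are not printed. Capitals mark matches, on either strand, to any of 6 motifs: GGAATG of TEAD factors, the DNA-binding partners of YAP and TAZ; ACAAAG of SOX factors; GCGTGGG of EGR factors; CACGTG, the E-box core of lysosomal genes; TCACNCCAC of sterol regulatory elements; and CCAAT of NF-Y. None of the matches in the printed windows overlap.
Ugt8a, chr3:125938653-125938902, minus strand: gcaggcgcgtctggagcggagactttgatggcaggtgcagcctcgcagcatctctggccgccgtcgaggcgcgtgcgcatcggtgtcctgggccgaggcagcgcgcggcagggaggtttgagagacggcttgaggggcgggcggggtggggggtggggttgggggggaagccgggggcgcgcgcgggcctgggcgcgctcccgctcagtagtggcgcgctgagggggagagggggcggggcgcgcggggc
Sptlc2, chr12:87388356-87388605, minus strand: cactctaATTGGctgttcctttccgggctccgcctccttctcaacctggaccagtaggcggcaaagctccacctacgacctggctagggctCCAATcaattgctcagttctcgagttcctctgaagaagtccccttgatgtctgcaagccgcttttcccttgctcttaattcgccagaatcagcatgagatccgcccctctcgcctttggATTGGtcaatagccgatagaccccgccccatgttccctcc
Gal3st1 first start, chr11:3983386-3983635, plus strand: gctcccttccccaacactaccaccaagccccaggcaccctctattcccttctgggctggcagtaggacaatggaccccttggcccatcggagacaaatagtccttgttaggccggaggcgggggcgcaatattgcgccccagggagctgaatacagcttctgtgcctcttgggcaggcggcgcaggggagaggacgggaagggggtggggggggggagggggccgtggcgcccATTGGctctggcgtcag
Gal3st1 inner start, chr11:3989683-3989932, plus strand: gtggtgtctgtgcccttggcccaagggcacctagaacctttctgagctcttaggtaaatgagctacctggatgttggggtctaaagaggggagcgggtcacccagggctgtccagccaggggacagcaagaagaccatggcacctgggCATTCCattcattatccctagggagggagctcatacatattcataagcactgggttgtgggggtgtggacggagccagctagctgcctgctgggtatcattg
Galc, chr12:98259460-98259709, minus strand: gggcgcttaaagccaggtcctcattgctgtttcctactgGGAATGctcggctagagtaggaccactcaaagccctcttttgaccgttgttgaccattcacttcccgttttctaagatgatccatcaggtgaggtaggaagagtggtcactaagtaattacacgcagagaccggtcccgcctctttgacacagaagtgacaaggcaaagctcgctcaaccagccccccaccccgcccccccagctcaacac
The Ugt8a window held none of the 6 motifs and was 76.8% G and C, against a median of 52.4% over all 32851 windows. GGAATG was found in the window before the inner start of Gal3st1, at 102 to 97 bases before it, and in that of Galc, at 211 to 206 bases. Of all windows 12.6% hold GGAATG. The Sptlc2 window held CCAAT at 3 places and the window before the first Gal3st1 start held it at 1, and 33.8% of all windows hold it. The other motifs were not in the printed windows (16.5% of all windows hold ACAAAG, 4.3% GCGTGGG, 6.02% CACGTG and 1.05% TCACNCCAC). This absence is one of the printed windows only. Among those not printed, GCGTGGG was found for Cers4, CACGTG for Cers2 and Degs1, ACAAAG for Sptlc1, and CCAAT for Cers2 and Sptlc1. A match is only a match of letters.

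The targeted genes do not check the labels. Yap1 stood at 120.4, 123.7 and 121.7 CPM in WT 1, 2 and 3 and at 108.1, 108.8 and 102.6 CPM in cKO 1, 2 and 3 (log2 -0.20 ± 0.08, edgeR adjusted p = 0.145). Wwtr1, which encodes TAZ, stood at 275.5, 284.2 and 253.8 CPM and at 367.1, 337.4 and 372.0 CPM, and was called higher (edgeR adjusted p = 0.0208). The counts cover whole genes, so a deleted exon is not seen, and every direction given here rests on the labels. Total gene counts were 41270894 to 47044158 in the WT and 24651262 to 32003497 in the cKO-labelled libraries.

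Of the 10 enzymes, 8 fell in the cKO-labelled libraries and 0 rose (edgeR quasi-likelihood test, Benjamini-Hochberg adjusted p under 0.05), where 6.17% of all tested genes were called lower and 4.77% higher. The fall was spread unevenly: it was 4.65-fold for the galactosyltransferase gene Ugt8a and 1.97-fold to 2.54-fold for Sptlc2 and Fa2h, and 1.42-fold to 1.80-fold for Cers4, Gal3st1, Cers2, Galc and Asah1. For all 10 genes, Sptlc1 and Degs1 included, each cKO-labelled library lay below each WT library, which held for 15.8% of all tested genes (31.1% had groups that did not overlap in either direction). The median log2 fold change was -0.79 over the 8 synthesis genes and -0.54 over the 2 breakdown genes, beside 0.02 over all tested genes. In whole nerve, fewer cells of a type and less RNA per cell cannot be told apart. Lower genes were 56.4% of all calls with TMM scaling and 32.3% when libraries were scaled by total counts alone, where the median of all genes was 0.15 and not 0.02; all 10 enzymes were negative with that scaling too, and 7 were called. With a covariate for skeletal muscle transcripts, which were higher in each cKO-labelled library, all 10 were negative and only Ugt8a was called.

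**Figure D1:**
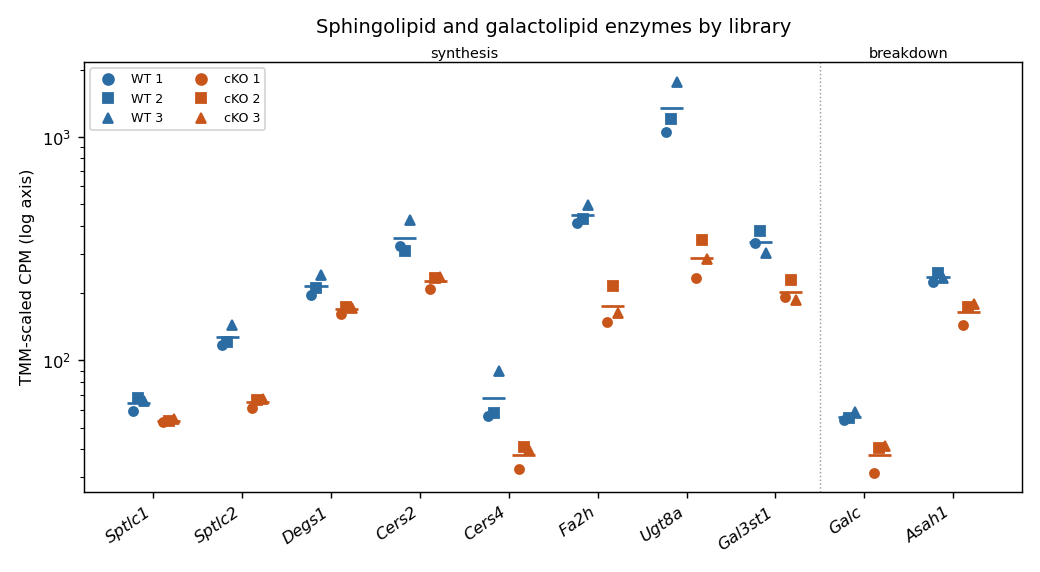
TMM-scaled CPM (log axis) of the 10 enzyme genes in each library, with WT in blue, cKO-labelled in orange, marker shape for the replicate number and a bar at the group mean of 3 libraries. The groups do not overlap for any of the 10 genes, and the gap is widest for Ugt8a (1052 to 1767 CPM against 234.2 to 347.0 CPM).

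Serine palmitoyltransferase, the committing step of all sphingolipid synthesis, is built from the Sptlc1 and Sptlc2 proteins. Sptlc2 (mm10 chromosome 12, 87305058 to 87388355, minus strand), which carries the cofactor of the catalytic site, stood at 117.5, 121.3 and 144.2 CPM in WT 1, 2 and 3 and at 61.2, 66.4 and 67.2 CPM in cKO 1, 2 and 3. It was thus lower in every cKO-labelled library, at a log2 fold change of -0.98 with an SE of 0.10 (n = 3 in each group; adjusted p from edgeR = 0.000725); the ± of other log2 fold changes is also the SE. Sptlc1 (chromosome 13, 53332748 to 53377397, minus strand) was at 59.5, 67.6 and 66.0 CPM in WT and at 52.8, 53.6 and 54.7 CPM in cKO 1, 2 and 3. Its groups did not overlap either, but the difference was small and was not called (log2 -0.26 ± 0.08, edgeR adjusted p = 0.0845). Per kilobase of exon, the level of Sptlc2 over that of Sptlc1 was 0.869 ± 0.086 (SD, n = 3) in WT and 0.530 ± 0.019 in the cKO-labelled libraries. The subunits therefore did not keep their ratio: it was 0.786 to 0.958 in the WT libraries and 0.508 to 0.543 in the others.

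Dihydroceramide desaturase, encoded by Degs1 (chromosome 1, 182275772 to 182282804, minus strand), completes ceramide. Degs1 stood at 196.5, 210.2 and 239.8 CPM in WT 1, 2 and 3 and at 161.7, 173.1 and 172.2 CPM in cKO 1, 2 and 3. The difference of -0.35 ± 0.10 on the log2 scale missed the threshold by the fifth decimal (edgeR adjusted p = 0.05001), and 6 of 15 alternatives called it: size factors of DESeq2, DESeq2 itself, limma-voom, no filter on low counts, and leaving out WT 1 or WT 3 (adjusted p from 0.00968 to 0.0495 in these 6 fits).

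Ceramide synthases differ in the fatty acid they attach. Cers2 (chromosome 3, 95314791 to 95323599, plus strand), which uses the very long chains typical of myelin lipids, stood at 323.3, 309.1 and 424.2 CPM in WT 1, 2 and 3 and at 209.6, 233.6 and 236.9 CPM in cKO 1, 2 and 3. It fell by 0.64 ± 0.13 on the log2 scale (edgeR adjusted p = 0.0150), a call lost without cKO 3 (edgeR adjusted p = 0.0618). Cers4 (chromosome 8, 4493026 to 4531680, plus strand) stood at 56.1, 57.9 and 89.5 CPM and at 32.5, 40.9 and 39.9 CPM, a fall of 0.85 ± 0.18 (edgeR adjusted p = 0.0188). The Cers4 call was lost without cKO 1 or cKO 3 (edgeR adjusted p = 0.0644 and 0.0701). For both genes WT 3 was the high library, by 0.42 and 0.65 on the log2 scale over the mean of WT 1 and WT 2. Among the paralogs, Cers5 was not called (82.1 ± 5.8 CPM in WT and 68.7 ± 5.4 CPM otherwise; edgeR adjusted p = 0.123) and Cers6 was low (2.74 and 3.16 CPM). Per kilobase, Cers2 made up 73.8% to 79.9% of the summed level of Cers1 to Cers6 in WT and 72.0% to 73.5% in the cKO-labelled libraries, and Cers5 went from 14.9% to 21.7% up to 22.3% to 23.6%. Cers1 enters that sum at 0 counts, but its exons overlap those of Gdf1, so reads shared by both would be given to neither. Exons of Cers2, Cers4 and Galc overlap genes on the opposite strand (Setdb1 and 6330562C20Rik for Cers2), and without a stated strand setting their reads cannot be told apart.

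The 3 enzymes tied to galactolipids (Fa2h, Ugt8a and Gal3st1) fell by different amounts. Fatty acid 2-hydroxylase, encoded by Fa2h (chromosome 8, 111345135 to 111393824, minus strand), makes the hydroxylated fatty acids found in myelin galactolipids. Fa2h stood at 410.7, 429.1 and 496.1 CPM in WT 1, 2 and 3 and at 147.8, 215.3 and 162.4 CPM in cKO 1, 2 and 3, or -1.35 ± 0.15 on the log2 scale (edgeR adjusted p = 0.00097). Ugt8a (chromosome 3, 125865271 to 125938619, minus strand), the ceramide galactosyltransferase that commits ceramide to galactolipids, stood at 1052, 1206 and 1767 CPM in WT and at 234.2, 347.0 and 283.5 CPM in cKO 1, 2 and 3. The highest of these was below the lowest WT library by a wide margin, and the log2 difference was -2.22 ± 0.21 (edgeR adjusted p = 0.000606); 0.338% of tested genes had a lower one. Gal3st1 (chromosome 11, 3983636 to 3999326, plus strand), the sulfotransferase that makes sulfatide, stood at 334.9, 377.2 and 302.3 CPM in WT and at 191.8, 228.0 and 187.0 CPM in cKO 1, 2 and 3. It fell less, by 0.74 ± 0.12 on the log2 scale (edgeR adjusted p = 0.00492). Within each group the 3 genes did not rank the libraries alike. WT 3 was highest for Fa2h and Ugt8a (by 0.24 and 0.65 on the log2 scale over the mean of the other WT libraries) and lowest for Gal3st1 (by -0.23), while cKO 2 was highest of its group for all 3. The level of Ugt8a over that of Gal3st1, per kilobase, was 1.41, 1.44 and 2.63 in WT 1, 2 and 3 and 0.549, 0.685 and 0.682 in cKO 1, 2 and 3. Ugt8a was thus the more abundant of the pair in each WT library and the less abundant in each cKO-labelled one.

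The breakdown enzymes fell by similar amounts. Galc (chromosome 12, 98202294 to 98259459, minus strand), the galactosylceramidase, stood at 53.9, 55.2 and 58.5 CPM in WT 1, 2 and 3 and at 31.5, 40.4 and 41.5 CPM in cKO 1, 2 and 3 (log2 -0.56 ± 0.12, edgeR adjusted p = 0.0154). Asah1 (chromosome 8, 41340197 to 41374773, minus strand), the lysosomal acid ceramidase, stood at 225.2, 246.6 and 232.8 CPM and at 143.3, 173.6 and 178.5 CPM (log2 -0.51 ± 0.10, edgeR adjusted p = 0.0147). In both genes cKO 1 was the lowest library. The Asah1 call was lost without WT 2 and with total counts only (edgeR adjusted p = 0.0571 and 0.0506), so that 1 breakdown enzyme was called in each of those fits. Per kilobase, the level of Asah1 over that of Galc was 18.5 ± 1.1 in WT and 19.2 ± 0.6 in the cKO-labelled libraries, with overlapping ranges.

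Ratios taken within a library need no scaling between libraries, and they differed between the steps of the pathway. The summed level of the 8 synthesis genes per kilobase, over that of the 2 breakdown genes, was 10.4, 10.4 and 13.1 in WT 1, 2 and 3 and 7.64, 7.73 and 6.60 in cKO 1, 2 and 3. The ratio was lower in all cKO-labelled libraries, by 1.55 times between the means. With only the 5 enzymes that lead to ceramide (Sptlc1, Sptlc2, Degs1, Cers2 and Cers4) in the sum, it was 2.99 ± 0.42 in WT and 3.00 ± 0.22 in the cKO-labelled libraries, and the groups overlapped. In WT most of that sum was Cers2 and Degs1, with means of 95.8 and 83.2 CPM per kilobase. Sptlc1, Sptlc2 and Cers4 had 18.1, 15.7 and 5.53. The breakdown sum was mostly Asah1 (69.3, against 3.76 for Galc). The flat ratio thus says little of Sptlc2, Cers4 or Galc. Ugt8a over Galc was 64.0, 71.7 and 99.1 in WT 1, 2 and 3 and 24.4, 28.2 and 22.4 in cKO 1, 2 and 3, and the mean of Fa2h over Galc went from 39.4 ± 2.3 to 23.0 ± 3.5, both without overlap. Gal3st1 over Galc was 44.2 ± 6.1 and 39.5 ± 6.0, with overlap. Ugt8a held 31.7% to 40.8% of the summed synthesis level in WT and 15.2% to 18.4% in the cKO-labelled libraries. Without it the ratio of synthesis to breakdown was 7.29 ± 0.43 and 6.09 ± 0.54. No test was run on these ratios, and the sizes depend on the gene lengths, which for Galc differ between 14879 bases of merged exons and 4439 bases of the longest transcript.

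**Figure D2:**
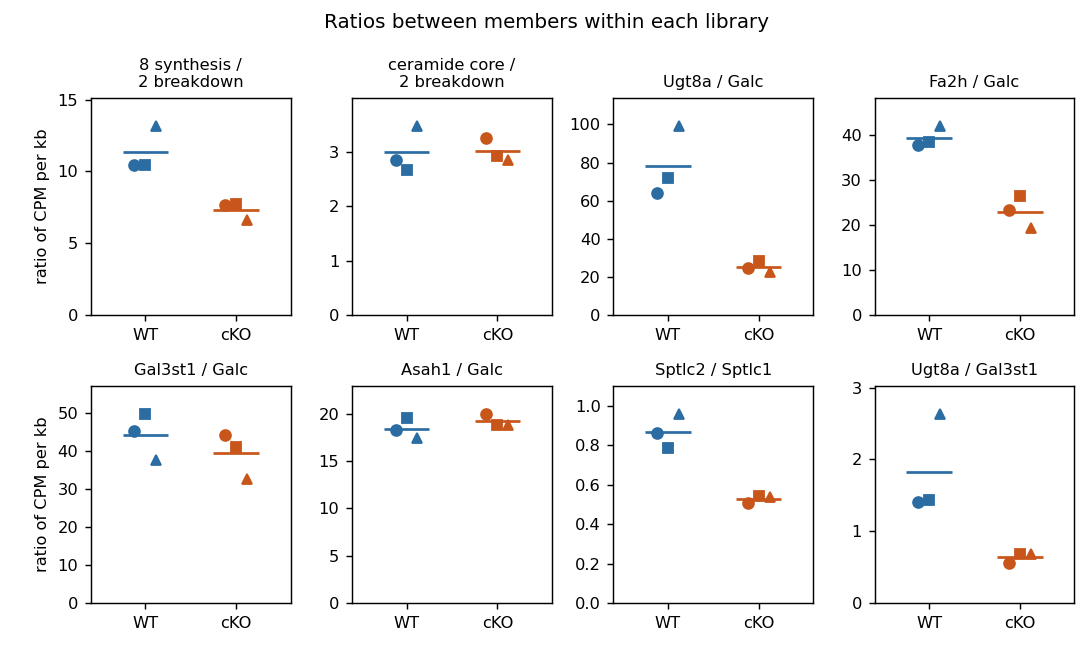
Ratios between enzyme levels (CPM per kilobase of merged exons) within each library, with a bar at the group mean of 3 libraries and circles, squares and triangles for replicates 1, 2 and 3; each panel has its own axis from 0. Ratios with Ugt8a or Fa2h and that of Sptlc2 to Sptlc1 separate the groups, while ceramide core over breakdown (2.99 and 3.00), Gal3st1 over Galc and Asah1 over Galc overlap.

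Levels between genes can be set side by side only per kilobase. In WT, the order of mean levels, in CPM per kilobase, ran from Ugt8a (295.8 ± 83.0, SD, n = 3) through Gal3st1 (165.7 ± 18.4), Fa2h (148.0 ± 14.9), Cers2 (95.8 ± 17.1), Degs1 (83.2 ± 8.5), Asah1 (69.3 ± 3.2), Sptlc1 (18.1 ± 1.2), Sptlc2 (15.7 ± 1.8) and Cers4 (5.53 ± 1.53) to Galc (3.76 ± 0.16). Gal3st1 and Fa2h, Cers2 and Degs1, and Sptlc1 and Sptlc2 were neighbours whose ranges over the WT libraries overlapped. In the cKO-labelled libraries Gal3st1 came first (99.1, from 91.6 to 111.7), and Degs1 (65.2 ± 2.5), Ugt8a (63.6 ± 12.5), Cers2 (61.7 ± 4.1) and Fa2h (58.2 ± 11.8) overlapped one another. With the longest transcript as the length, Galc rose above Cers4 in WT (12.6 against 7.16) and Cers2 came closer to Fa2h (158.9 against 178.7). In the cKO-labelled libraries Cers2 (102.3) then came close behind Gal3st1 (107.7), ahead of Degs1 (82.5), Ugt8a (76.6) and Fa2h (70.3). The order and overlaps given above thus hold for merged exons.

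In 4 lists of other sphingolipid genes, 56 of 64 were tested, of which 5 were lower and 1 higher. Of all tested genes 6.17% were called lower and 10.9% in either direction, so these counts are near the background. Among 8 tested genes of ceramide synthesis 0 were called by edgeR, and 0 by DESeq2 or limma-voom, with 2 lower and 0 higher at an unadjusted p under 0.05; without WT 3 edgeR called 1 lower, Cers5. The small activating subunit Sptssa went from 184.1 ± 18.5 to 145.5 ± 19.5 CPM (edgeR adjusted p = 0.114), and the inhibitors Ormdl1, Ormdl2 and Ormdl3 had log2 fold changes of -0.16, -0.14 and 0.15. Kdsr, the reductase between the first enzyme and the ceramide synthases, stood at 34.0 and 33.6 CPM. Sptlc3 had 0 counts in every library, which allows up to 0.117 CPM in the shallowest one, taking 3 counts as the limit and counting error only.

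Of 16 tested genes that move ceramide on to other headgroups or carry it between membranes, 4 fell. B4galt6, a lactosylceramide synthase, had a mean of 50.7 ± 2.7 CPM in WT and 33.9 ± 0.8 CPM otherwise (log2 -0.58 ± 0.09; edgeR adjusted p = 0.00383), and Col4a3bp, the ceramide transfer protein, went from 86.6 ± 14.5 to 58.9 ± 3.0 CPM (edgeR adjusted p = 0.0199). Samd8 and the sialyltransferase gene St3gal3 were also called lower. The Col4a3bp call was lost without cKO 1, cKO 2 or cKO 3, and B4galt6 kept its call in each fit that left out 1 library; the list's count ran from 1 to 5 over these fits. Ugcg, the glucosylceramide synthase that competes with Ugt8a for ceramide, stood at 39.8 ± 3.4 and 35.7 ± 2.4 CPM and was not called (edgeR adjusted p = 0.396).

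Among 20 other tested genes of sphingolipid breakdown 0 fell (0 also at an unadjusted p under 0.05 and in DESeq2 or limma-voom) and 1 rose, with a median log2 fold change of 0.02. Gm2a, the activator of ganglioside GM2 breakdown, rose from a mean of 166.9 ± 12.4 CPM to 234.2 ± 5.3 CPM (by log2 0.49 ± 0.09, edgeR adjusted p = 0.00868), a call lost without cKO 3 or WT 1. Arsa, the sulfatidase that acts before Galc, stood at 34.1 ± 3.8 and 32.9 ± 1.0 CPM (log2 -0.05 ± 0.11, edgeR adjusted p = 0.829). Psap, the precursor of the saposins that both Arsa and Galc need, stood at 936.8 ± 96.8 and 820.6 ± 15.1 CPM (edgeR adjusted p = 0.292). The other ceramidase genes Asah2, Acer2 and Acer3 had log2 fold changes of -0.13, 0.11 and -0.12 and were not called. In a list of 30 lysosomal genes, 2 fell (Ids and Lipa) and 0 rose (0 also at an unadjusted p under 0.05, and in DESeq2 or limma-voom), with a median of 0.02; the lower share is near the 6.17% of all tested genes. DESeq2 called 5 lower, with Lamp1, Npc2 and Cln3 added, and without WT 3 edgeR called 2 higher, Ctsl and Man2b1. Galc and Asah1 thus had lower values than the medians of both lists, at -0.56 and -0.51; the difference itself was not tested. Among 12 tested genes of sphingosine 1-phosphate, 1 was called lower, Aldh3a2 (log2 -0.30 ± 0.08, edgeR adjusted p = 0.0420), which was called in 1 of the 6 fits that left out a library, the one without WT 3.

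Genes that supply the acyl chains were lower in part, where 6.17% of all tested genes were called lower and 4.77% higher. Of 16 tested genes of acyl chain supply, 6 fell and 0 rose by edgeR (9 lower and 2 higher at an unadjusted p under 0.05). With total counts only 5 were lower and 2 higher, and 1, Hacd1, was higher with upper-quartile factors, in DESeq2 and without WT 3. Elovl1, the elongase that makes very long chains for Cers2, fell from a mean of 459.1 ± 24.3 CPM to 270.7 ± 13.1 CPM (by log2 -0.76 ± 0.09; edgeR adjusted p = 0.00131), and Elovl6 and Elovl7 fell by 1.30 ± 0.18 and 0.84 ± 0.12 on the log2 scale. Hsd17b12, Tecr and Acsl3 were the others called lower. The Tecr call was lost without cKO 1, cKO 3 or WT 2, with total counts only and with the replicate block, and the Acsl3 call without cKO 3. Of 9 genes that supply sulfate and UDP-galactose, 1 fell: Papss1, which makes the sulfate donor used by Gal3st1, went from 292.9 ± 13.6 to 210.3 ± 10.5 CPM (edgeR adjusted p = 0.00888), a call lost without cKO 3. The median log2 fold change of these 9 genes was -0.07. Of all tested genes 10.9% were called in either direction, so 1 of 9 is near the background.

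**Figure D3:**
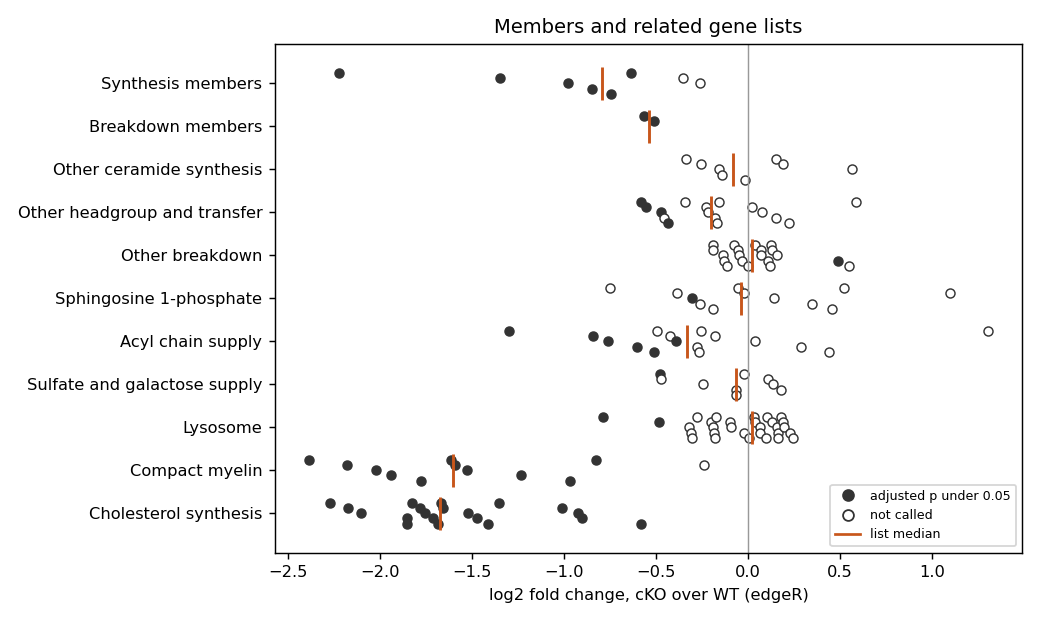
Log2 fold change (cKO-labelled over WT, edgeR) of every tested gene in the synthesis and breakdown enzymes and in 9 related lists, filled where the adjusted p was under 0.05, with an orange line at the list median; height within a row only spreads the points. The 10 enzymes lie between -2.22 and -0.26, and the medians run from -1.67 for cholesterol synthesis to 0.02 for other breakdown and lysosomal genes.

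Set beside other myelin genes, the enzymes lay between the lists with the lowest medians and those with medians near 0. The median log2 fold change was -1.60 for 12 compact myelin genes (11 lower), -1.67 for 20 genes of cholesterol synthesis (20 lower) and -0.97 for 13 genes of fatty acid synthesis (9 lower, 1 higher). Ugt8a at -2.22 was below all 3 medians, Fa2h (-1.35) and Sptlc2 (-0.98) lay below only the last of them, and the other 5 synthesis genes lay above all 3. These lists come from the same 6 libraries, and differences between lists were not tested. The genes nearest to the mean profile of Fa2h, Ugt8a and Gal3st1 over the 6 libraries, by root mean square difference of centred log2 CPM among 10268 genes, were Tmem189 (0.0406), Ptprt (0.0527), Pea15a (0.0632), Insig1 (0.0690), Nsdhl (0.0796), Pcyt1b (0.0875), Fut8 (0.0896) and Fdft1 (0.0913). Of the 3 enzymes themselves, Fa2h lay at 0.0526 from that mean profile, but Ugt8a at 0.412 and Gal3st1 at 0.383. The 8 genes are thus near the mean and near Fa2h, not near each of the 3 enzymes. Tmem189 stood at 266.7, 287.5 and 338.7 CPM in WT 1, 2 and 3 and at 95.5, 124.8 and 106.8 CPM in cKO 1, 2 and 3.

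Markers of skeletal muscle, and in part those of the Schwann lineage, moved with the groups as well. Of all tested genes 6.17% were called lower and 4.77% higher. Of 20 skeletal muscle markers, 17 were higher in the cKO-labelled libraries, and their summed level was 504.4 to 1909 CPM in WT and 4989 to 10898 CPM there, with 0 of them at 0 in all libraries. With the muscle level as a covariate all 10 enzymes stayed negative, with a median of -1.05 over the synthesis genes, but only Ugt8a was called (log2 -2.69, edgeR adjusted p = 0.0404). The median SE of the 10 genes went from 0.116 to 0.250 in that fit, and muscle level and group cannot be told apart further here, since each cKO-labelled library had more muscle transcript than each WT library. Of 12 Schwann lineage markers 5 were lower and 0 higher, among them Scn7a (log2 -2.82), Gfra3 (-1.63), Ngfr (-0.66) and Egr2 (-0.53). Only 8 of the 12 had negative log2 fold changes. The median of the list was -0.24 and its highest value 0.27. Sox10, the lineage's transcription factor, stood at 544.6, 571.2 and 404.6 CPM in WT 1, 2 and 3 and at 456.1, 485.7 and 413.4 CPM in cKO 1, 2 and 3 (edgeR adjusted p = 0.522). Of 12 macrophage markers 0 were called by edgeR (0 lower and 3 higher at an unadjusted p under 0.05) and their summed level overlapped (519.7 to 718.6 and 642.0 to 689.1 CPM); 2 of 10 fibroblast markers and 1 of 11 tested adipocyte markers were higher, and 1 of 8 perineurial markers, Itgb4, was lower. Only 3 of the 8 perineurial markers had negative log2 fold changes, and the median of that list was 0.31. At an unadjusted edgeR p under 0.05, 2 perineurial markers were lower and 1 higher. Of 9 endothelial markers 0 were called by edgeR (0 lower and 2 higher at an unadjusted p under 0.05). Of 3 tested erythroid markers 0 were called either. The adipocyte markers summed to 164.2, 169.7 and 771.2 CPM in WT 1, 2 and 3 and to 495.9 to 706.3 CPM in the cKO-labelled libraries. WT 3, which stood apart there, was also the highest WT library for Sptlc2, Degs1, Cers2, Cers4, Fa2h, Ugt8a and Galc. For Sptlc1, Gal3st1 and Asah1 it was not. WT 3 also had the highest WT sum for cholesterol synthesis and compact myelin genes (the latter 120746 CPM, against 86376 and 88045 CPM in WT 1 and WT 2). The same held for Schwann lineage, macrophage, fibroblast, perineurial and endothelial markers, but not for skeletal muscle or erythroid ones. The part of these cells in the results was not tested. Of 8 markers of central glia only 3 passed the filter on low counts, and the list summed to 2.07 to 8.18 CPM. Of these 3, Mobp was called lower, at 1.30, 1.55 and 3.10 CPM in WT 1, 2 and 3 and at 0, 0.0389 and 0 CPM in cKO 1, 2 and 3. Only Mobp had a negative log2 fold change. The median of the 3 was 0.02 and the highest value 2.45, and 1 was higher at an unadjusted edgeR p under 0.05.

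**Figure D4:**
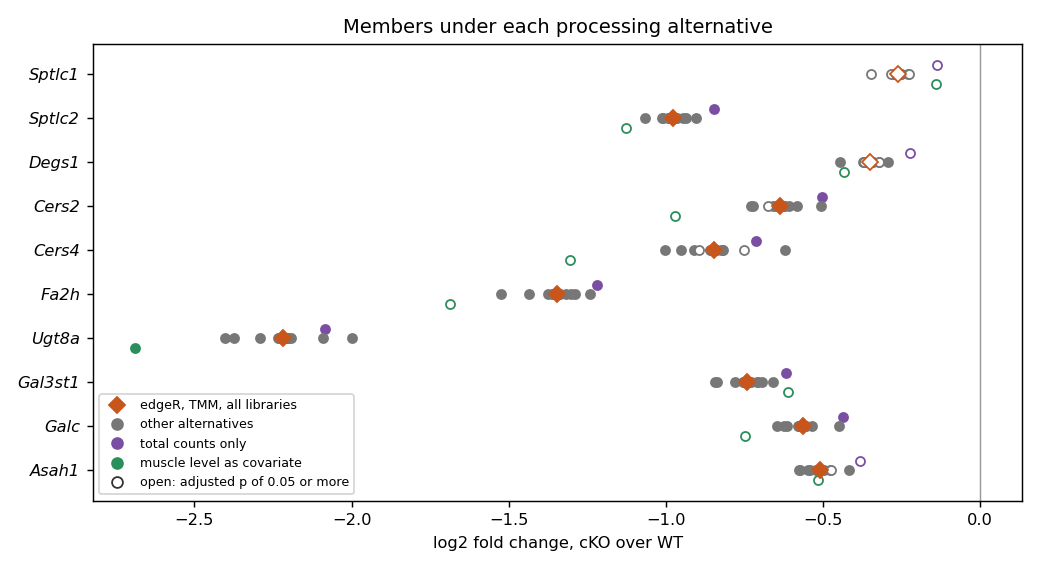
Log2 fold change of each enzyme gene under the edgeR fit of all libraries (orange diamond) and 15 alternatives (circles), filled where the adjusted p was under 0.05. All values lie below 0; Ugt8a is called throughout, Sptlc2, Fa2h, Gal3st1 and Galc in all but the fit with the muscle level (green), and Sptlc1 in none.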

How the data were processed

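Total RNA of 6 sciatic nerve samples (3 per group) was sequenced from TruSeq libraries, per the labels' protocols. Each deposited file lists 1 raw count for each gene symbol; the authors used TopHat2 version 2.0.13, HTSeq and mm10, per the submitters' processing notes. No source used here gives the annotation or the strand setting. The 5 closing lines of HTSeq were left out (no feature 12.07% to 14.26% of all counts, ambiguous 1.635% to 2.818%).

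The test was that of edgeR 4.0.16 (R 4.3.3) on these counts: filterByExpr with a minimum count of 10, TMM factors, quasi-likelihood F test, group as the only term, adjustment over all 14789 tested genes, threshold 0.05. An SE is the size of the log2 change over the root of its F. Alternatives were DESeq2 1.42.0, limma-voom (limma 3.58.1), other scalings and filters, each library left out, the replicate number as a block and the muscle level as a covariate. The covariate is the mean log2 CPM of 20 muscle genes. Lengths and positions came from GENCODE M21 (GRCm38); levels per kilobase are CPM over merged exons. The pipeline was tested on simulated counts. No library was a copy of another: chi-square over its degrees of freedom was 13.45 or more for each replicate pair. Separate mice are given only by the design text; p-values measure the spread between these libraries.

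All 10 enzymes were named in full, paralogs and cofactors were eligible, and other list genes were taken in order of p, up to 6 per list. The genes followed and the lists were chosen with earlier results of these data known. The likeness rule took the 8 nearest genes whose mean log2 CPM was 3 or more. Kdsr, Ugcg, Sox10, Ngfr, Egr2, Hacd1, Npc2, Cln3, Ctsl and Man2b1 stand outside this rule and were chosen after their values were seen; Setdb1, 6330562C20Rik and Gdf1 were named after the annotation was read.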

Additional observations from a re-analysis of the deposited data

How the results depend on the processing

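The log2 fold changes of the 10 enzymes were negative in all 150 values from 15 alternatives; 132 kept their side of the threshold, 12 lost a call (7 of them with the muscle level as a covariate) and 6, all of Degs1, gained one. Leaving out 1 library gave 4 to 7 synthesis and 1 to 2 breakdown enzymes called lower, 459 to 1120 genes called lower in all and 276 to 1075 called higher. Moves of over 1.5 times came without cKO 2 (395 higher), cKO 3 (459 lower, 276 higher), WT 1 (449 higher), WT 2 (575 lower, 409 higher) and WT 3 (1075 higher). Total counts gave 1 breakdown enzyme, 606 lower and 1273 higher genes. The muscle covariate left 1 synthesis and 0 breakdown enzymes, 47 lower and 5 higher genes, with a median SE of 0.250 for the enzymes. The replicate number as a block changed no call of the 10 enzymes and left 461 genes higher and 643 lower. Same-numbered libraries had correlations of deviations of -0.207, -0.122 and 0.0724, and differently numbered ones of -0.1 to 0.222. With 3 libraries per group these values cannot decide whether the numbers pair the samples. The ratio of synthesis to breakdown was 162 in WT and 87.5 in the cKO-labelled libraries with Fa2h, Ugt8a and Gal3st1 over Galc, and 7.29 and 6.09 without Ugt8a, a choice made after seeing the data. The cause of these moves was not tested. Every enzyme had at least 1036 reads per library, so counting error limits none of the 10.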
